A study of Mus musculus with 67 samples.

Results

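Arntl, Clock and Npas2, the genes for the activating transcription factors of the mammalian circadian clock, were described in mouse liver by time of day in 8 groups of genotype and feeding. The members were chosen by symbol, as the entries of the deposited expression table named Arntl, Clock and Npas2, so they are 3 of its 45808 gene entries. The study sequenced polyA RNA from 67 liver libraries. All animals were C57BL/6 mice, 24 weeks old, kept for 12 weeks on a high-fat diet, which every group including the controls received.

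The mutant groups on time-restricted feeding (TRF) and on ad libitum feeding (AL) were as follows. Bmal1LKO, the liver knockout of Bmal1 (another name for Arntl), had 6 TRF and 6 AL libraries at zeitgeber times (ZT) 4, 8, 12, 16, 20 and 24, with 1 library at each time. CryDKO, the double knockout of Cry1 and Cry2 with no tissue named, had 8 TRF and 8 AL libraries, and ReverbLDKO, the liver double knockout of Rev-erbα and Rev-erbβ, also had 8 TRF and 8 AL libraries. Both of these were sampled at ZT3, 6, 9, 12, 15, 18, 21 and 24, with 1 library at each time. Wild type (WT) had 11 TRF and 12 AL libraries at the same times as Bmal1LKO, with 2 libraries at each time and 1 at ZT12 under TRF. The hours of the feeding window, the driver of the liver knockouts and the deleted exons are not given in the sources used here. How many hepatocytes keep an intact gene is therefore unknown. Whether each library is a separate animal is not labelled, and the p-values cover only the spread from library to library. In bulk liver, fewer cells of a type and less RNA per cell cannot be told apart.

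In the mammalian clock, the protein of Arntl, BMAL1, pairs with CLOCK or with its close relative NPAS2, and the pair binds E-box sequences and activates transcription. Among the activated genes are the Per and Cry genes, whose proteins repress the pair, and Nr1d1 and Nr1d2, which encode the nuclear receptors REV-ERBα and REV-ERBβ. REV-ERBs repress genes that carry ROR response elements (ROREs), and Arntl, Npas2 and Clock are known REV-ERB targets, with Arntl the best studied.

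Promoter sequences of the 3 genes are shown because 2 of the 4 genotypes lack a repressor of this loop. They are RefSeq windows on GRCm38.p6 that run from 250 bases before to 50 bases after an annotated start. All 3 members matched, with 6 windows in all, and 1 window per gene is printed, 5′ to 3′ on the gene's own strand. Of the 2 windows of Arntl the one with more matches is shown, chosen after the matches were seen, of the 3 of Clock the one at the annotated start of the gene, and Npas2 had 1. Arntl is at chr7:113207261-113207560 on the plus strand, Clock at chr5:76304743-76305042 on the minus strand, and Npas2 at chr1:39194022-39194321 on the plus strand. Capitals mark matches to the RORE form TAGGTNA.
Arntl: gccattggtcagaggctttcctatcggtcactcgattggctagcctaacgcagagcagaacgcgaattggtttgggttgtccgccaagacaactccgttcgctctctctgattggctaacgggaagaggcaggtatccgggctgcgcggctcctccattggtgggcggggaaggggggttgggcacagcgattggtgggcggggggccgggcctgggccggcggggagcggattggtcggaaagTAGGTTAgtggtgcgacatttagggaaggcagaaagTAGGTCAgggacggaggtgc
Clock: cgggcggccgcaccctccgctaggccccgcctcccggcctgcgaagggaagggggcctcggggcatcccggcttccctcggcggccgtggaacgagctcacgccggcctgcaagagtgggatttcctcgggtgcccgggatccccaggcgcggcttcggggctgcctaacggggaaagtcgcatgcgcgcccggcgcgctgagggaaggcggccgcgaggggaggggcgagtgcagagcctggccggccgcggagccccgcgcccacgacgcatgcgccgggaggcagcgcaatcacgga
Npas2: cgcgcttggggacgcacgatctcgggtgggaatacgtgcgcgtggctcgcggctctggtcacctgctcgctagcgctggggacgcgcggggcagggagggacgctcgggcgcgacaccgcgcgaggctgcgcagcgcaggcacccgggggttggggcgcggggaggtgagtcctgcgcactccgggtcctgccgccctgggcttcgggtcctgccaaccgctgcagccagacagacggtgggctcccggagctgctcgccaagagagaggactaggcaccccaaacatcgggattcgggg
The printed Arntl window held TAGGTTA at 6 bases before the start and TAGGTCA at 30 bases after it, both on the gene's strand. TAGGTNA, searched on both strands, was in 8.29% of 32851 mouse promoter windows, and 2 matches on the same strand were in 0.292%. The printed windows of Clock and Npas2 held none of TAGGTNA, the shorter RORE core AGGTCA, which overlaps TAGGTNA, or the E-boxes CACGTG and CACGTT. The shorter core was in 16.3% of all windows, CACGTG in 7.15% and CACGTT in 4.69%. Of the windows not printed, that of Clock at chr5:76303453-76303752 held the shorter core on the strand opposite to the gene, 119 bases before its start, and the overlapping Arntl window at chr7:113207215-113207514 held TAGGTTA 40 bases after its own start. A match is a description of the letters and not a shown binding site, and a missing match says only that these letters are not in this window.

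By the GENCODE vM21 annotation of GRCm38, Arntl (ENSMUSG00000055116.8) spans chr7:113207465-113314126 on the plus strand with 7523 exonic bases. Clock (ENSMUSG00000029238.11) spans chr5:76209868-76304792 on the minus strand with 13727 exonic bases. Npas2 (ENSMUSG00000026077.15) spans chr1:39193731-39363236 on the plus strand with 4791 exonic bases. The exons of Clock are poorer in G and C than those of the other two, at 41.5% against 48.3% in Arntl and 53.8% in Npas2, and 7.6% of the tested genes have a lower share than Clock. Arntl shares 33 exonic bases with Gm45355 on the opposite strand, and the strand setting of the counting is not given, so reads from those bases cannot be told apart.

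Values were deposited as FPKM, read counts scaled by exon length and library size, which allow levels to be compared between genes per length. Recovered depth ranged from 9.14 to 36.1 M reads a library, and the FPKM summed to between 386198 and 1097495. WT libraries differed between feedings in how values ran with GC content, with a median slope of -0.557 (log2 per 10 percentage points of GC) under TRF and 0.336 under AL, while the medians of the mutant groups lay between -0.019 and 0.127. One WT library under AL at ZT16 had the lowest mean correlation with the others, 0.832, and the highest FPKM sum. All 8 hepatocyte markers were detected in every group, with median sums of 37140 FPKM in Bmal1LKO under TRF and 39300 under AL, and from 50380 to 69350 FPKM in the 6 other groups, WT included. Adipocyte markers had a median sum of 0.926 FPKM in WT under TRF and 14.9 under AL. Bile duct markers had group medians of 1.75 to 5.93 FPKM, endothelial markers 38.0 to 55.2, immune markers 108 to 175, stellate markers 10.03 to 16.4, pancreatic markers 46.5 to 112 and erythroid markers 206 to 1035. Single libraries lay far above these medians. Pancreatic sums reached 3035 FPKM in WT under AL, 1179 in WT under TRF, 1114 in CryDKO under TRF and 504 in ReverbLDKO under AL. The adipocyte sum reached 45.5 FPKM in WT under AL. Sums over all exons do not check the deletions. In ReverbLDKO the summed Nr1d1 was higher than in WT by 2.67 ± 0.20 log2 under TRF and 2.77 ± 0.20 under AL, and in CryDKO the summed Cry1 was higher than in WT by 0.41 ± 0.12 under TRF and 0.18 ± 0.12 under AL (SE).

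All tests below come from 1 limma fit on log2(FPKM + 1) over 67 libraries and the 9944 genes whose mean FPKM was 1 or more, with a 24 h level and a 24 h cosine curve for each group and Benjamini-Hochberg adjustment over all genes. A change passed the test at an adjusted p below 0.05. Folds on this scale understate changes of low values. All 3 members passed the filter on the mean, Npas2 through its levels in Bmal1LKO and ReverbLDKO.

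Arntl, the gene targeted in Bmal1LKO, was still counted in every Bmal1LKO library. Its values at ZT4, 8, 12, 16, 20 and 24 were 3.39, 2.00, 2.77, 2.46, 3.84 and 4.34 FPKM in Bmal1LKO under TRF. In Bmal1LKO under AL they were 3.67, 2.76, 2.98, 2.90, 7.09 and 3.37 FPKM. The AL library at ZT20 stood above the rest of its group, and the same library held the lowest Npas2 value of the group. All Bmal1LKO values lay within the range of the WT day. At ZT8 and ZT12 Bmal1LKO was above every WT library of its feeding group, and at the other 4 times it was below every one.

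In WT, Arntl rose and fell strongly over the day. At ZT4, 8, 16, 20 and 24 the pairs of WT libraries under TRF had 11.5 and 7.83, 0.416 and 0.585, 7.29 and 5.38, 12.4 and 12.4, and 12.6 and 11.9 FPKM, and the library at ZT12 had 0.892 FPKM. Under AL the pairs at ZT4, 8, 12, 16, 20 and 24 had 11.7 and 7.15, 0.552 and 0.700, 1.90 and 1.45, 6.71 and 2.94, 7.83 and 8.37, and 9.79 and 10.2 FPKM. The lowest values of both feeding groups were at ZT8, and the highest mean was at ZT20 under TRF and ZT24 under AL. The highest time mean was 24.8 times the lowest under TRF and 15.97 times the lowest under AL.

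Npas2 in WT was at a lower level than Arntl and rose later. At ZT16 Npas2 was at 0.105 FPKM or less, while Arntl was at 2.94 FPKM or more. Under TRF the WT pairs at ZT4, 20 and 24 had 1.15 and 0.415, 1.26 and 0.730, and 1.78 and 1.75 FPKM, and the 5 libraries from ZT8 to ZT16 had 0 to 0.0362 FPKM. Under AL the WT pairs at ZT4, 20 and 24 had 2.80 and 0.505, 0.712 and 0.607, and 3.22 and 2.11 FPKM, and the 6 libraries from ZT8 to ZT16 had 0 to 0.152 FPKM. The low phase under TRF rested on very few reads, with 1 recovered read in each of the 2 libraries at ZT8 and in the library at ZT12. The order of libraries within that phase can therefore not be read.

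Clock in WT moved less. At ZT4, 8, 16, 20 and 24 the WT pairs under TRF had 6.10 and 6.44, 3.10 and 4.22, 4.73 and 6.04, 7.27 and 9.47, and 3.44 and 6.95 FPKM, and the library at ZT12 had 4.90 FPKM. Under AL the pairs at ZT4, 8, 12, 16, 20 and 24 had 3.88 and 3.89, 2.00 and 2.85, 2.66 and 3.11, 3.03 and 3.49, 3.74 and 4.39, and 4.996 and 4.06 FPKM. Clock also had its lowest mean at ZT8 in both feeding groups. Its highest time mean was 2.29 times the lowest under TRF and 1.87 times under AL, and no WT library had less than 2.00 FPKM.

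**Figure D1:**
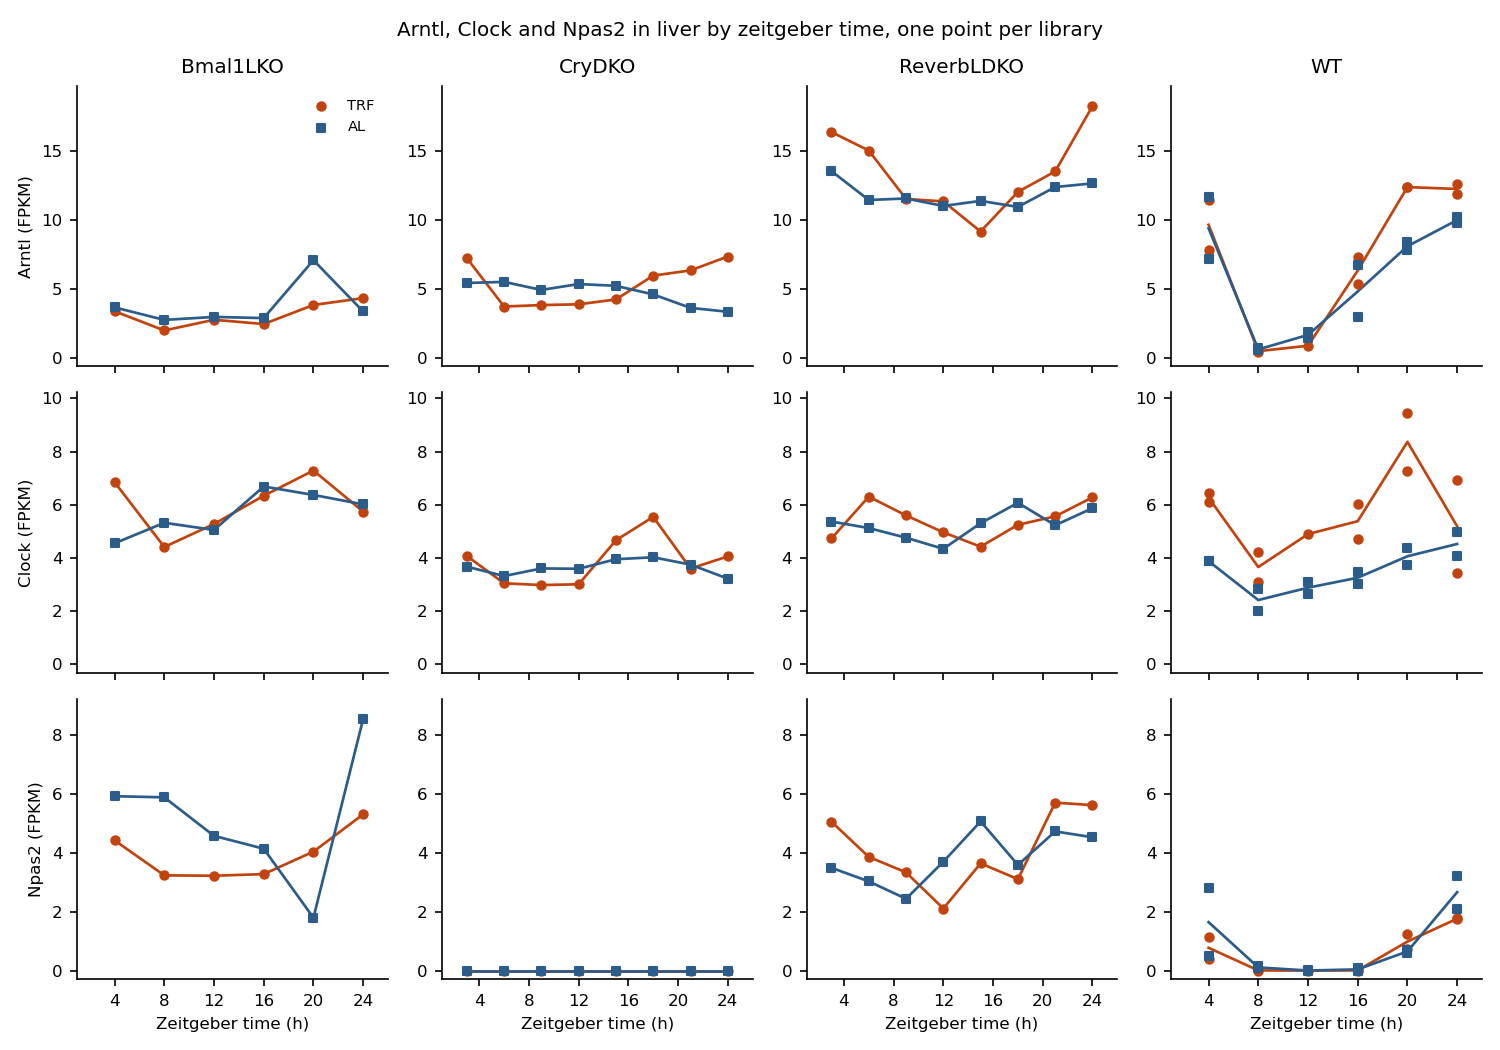
FPKM of Arntl, Clock and Npas2 (rows) against zeitgeber time in hours in Bmal1LKO, CryDKO, ReverbLDKO and WT (columns), with 1 point per library, circles for TRF, squares for AL, and lines through the means at each time. Arntl in WT is at 1.90 FPKM or less and Npas2 at 0.152 FPKM or less at ZT8 and ZT12, Arntl in ReverbLDKO stays at or above 9.17 FPKM at every time, and Npas2 in CryDKO is at 0 at every time.

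The 24 h curve passed the test for all 3 members in WT under both feedings. The amplitude of Arntl, the distance from the curve's level to its peak, was 1.71 ± 0.17 log2 with a peak at ZT22.25 ± 0.36 h under TRF (limma adjusted p = 2.39e-09) and 1.33 ± 0.16 with a peak at ZT22.64 ± 0.45 h under AL (adjusted p = 2.14e-07; SE throughout). Npas2 had an amplitude of 0.83 ± 0.12 with a peak at ZT23.76 ± 0.52 h under TRF (limma adjusted p = 3.14e-05) and 0.92 ± 0.11 with a peak at ZT0.74 ± 0.47 h, past ZT24, under AL (adjusted p = 4.27e-07). Clock had an amplitude of 0.32 ± 0.09 with a peak at ZT20.89 ± 1.07 h under TRF (limma adjusted p = 0.0228) and 0.32 ± 0.09 with a peak at ZT22.66 ± 1.03 h under AL (adjusted p = 0.0178). Of all tested genes, 20% passed under TRF and 29.7% under AL. The call for Clock was lost when the group was fitted alone, with an adjusted p of 0.526 under TRF and 0.113 under AL. It was also lost under TRF without either ZT20 library or replicate 1 at ZT8 (adjusted p up to 0.166) and under AL without replicate 1 at ZT8 (0.0578). With libraries scaled to the same sum of FPKM its adjusted p was 0.219 under TRF and 0.0921 under AL, whereas Arntl and Npas2 kept theirs under every alternative run. With GC content and gene length corrected within each library, the Clock amplitude was 0.46 ± 0.06 under TRF and 0.43 ± 0.06 under AL.

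In the 6 mutant groups no member passed the test for a 24 h curve. The background was also low there. It was 0.513% in Bmal1LKO under TRF and 0.0302% under AL, 7.25% in CryDKO under TRF and 0.0503% under AL, and 3.95% in ReverbLDKO under TRF and 0.0302% under AL. The Arntl amplitudes in mutants were 0.11 to 0.44 log2, those of Clock 0.09 to 0.26, and those of Npas2 outside CryDKO 0.28 to 0.51. The nearest to the threshold was Npas2 in ReverbLDKO under TRF, with an amplitude of 0.45 ± 0.14 (unadjusted p = 0.00816, limma adjusted p = 0.117), followed in unadjusted p by Npas2 in Bmal1LKO under AL, at 0.51 ± 0.16 (unadjusted p = 0.0096, limma adjusted p = 0.517). These groups had 1 library at each time, so an amplitude that misses the threshold does not show that a rhythm is absent. With library weights in the fit, 10 member curves passed in place of 6, among them Npas2 in ReverbLDKO under TRF, at 0.55 ± 0.09. That fit also called far more of all 9944 genes, with 3441 in ReverbLDKO under TRF, 983 in ReverbLDKO under AL and 2639 in CryDKO under TRF.

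**Figure D2:**
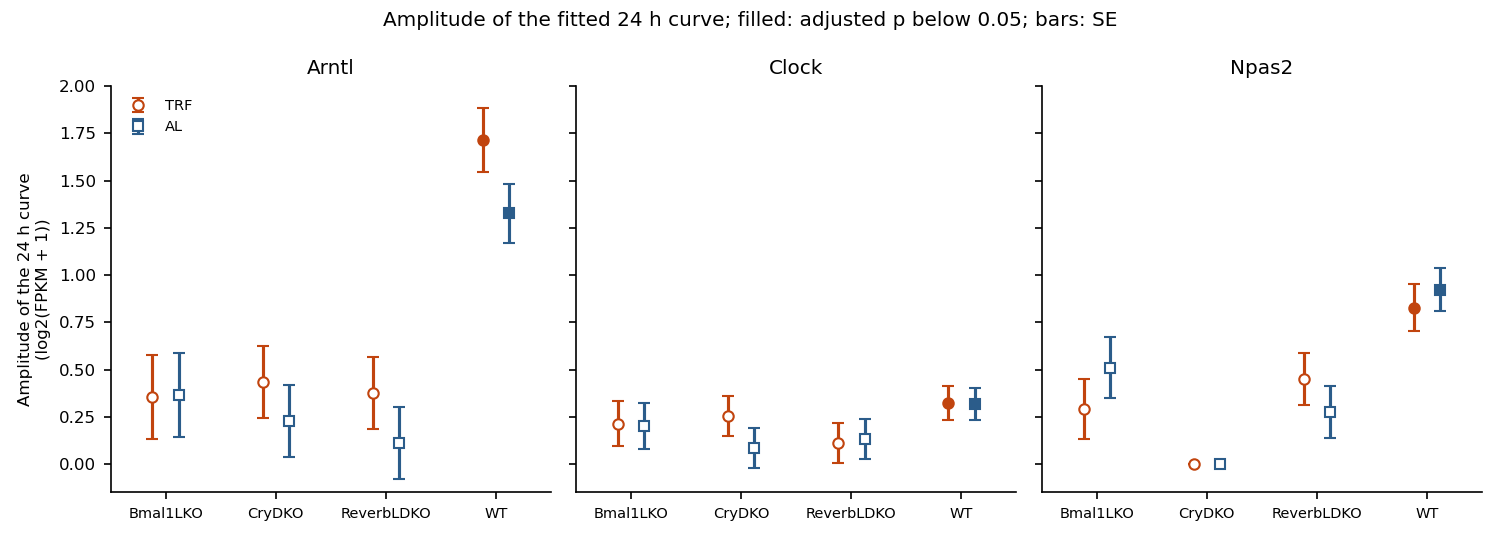
Amplitude of the fitted 24 h curve in log2(FPKM + 1) for Arntl, Clock and Npas2 in Bmal1LKO, CryDKO, ReverbLDKO and WT, with TRF (circles) left of AL (squares), bars for the SE and filled points where the adjusted p was below 0.05. The 6 filled points are those of WT, from 0.32 for Clock to 1.71 for Arntl.

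The difference in the 24 h curve was itself tested, as the amplitude of the curve of mutant minus WT, which covers changes of size and of phase together. For Arntl this difference curve had an amplitude of 1.28 ± 0.26 in CryDKO against WT under TRF (limma adjusted p = 0.00617) and 1.55 ± 0.25 under AL (adjusted p = 0.000632). In ReverbLDKO against WT it was 1.52 ± 0.25 under TRF (limma adjusted p = 0.00203) and 1.25 ± 0.25 under AL (adjusted p = 0.0326). In Bmal1LKO against WT it was 1.37 ± 0.28 under TRF (limma adjusted p = 0.049) and 0.99 ± 0.27 under AL (adjusted p = 0.231), and the TRF call held in only 19 of 67 fits that left out 1 library. The ReverbLDKO call under AL held in 59 of them and was lost without any 1 of 5 ReverbLDKO and 3 WT libraries (adjusted p up to 0.122). The background of genes called was 3.45% and 1.31% for CryDKO under TRF and AL, 1.42% and 0.161% for ReverbLDKO, and 0.131% and 0.161% for Bmal1LKO. Fitted with only the groups compared, none of the Arntl calls held, with adjusted p of 0.0678 to 0.978. The ReverbLDKO call under AL was also lost with a pseudocount of 0.1, no filter, the same sum of FPKM and voom (adjusted p 0.0525 to 0.166). The Bmal1LKO call under TRF was lost with that pseudocount, the same sum, voom and a replicate block (adjusted p 0.0588 to 0.165). Both calls, and the CryDKO call under TRF, were lost without replicate 2 of WT.

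For Npas2 in CryDKO, at 0 in every library, the difference curve is the WT curve itself and tests nothing further. The Npas2 difference curve passed in ReverbLDKO against WT under AL, at 0.90 ± 0.18 (limma adjusted p = 0.0321), but not under TRF, at 0.38 ± 0.19 (adjusted p = 0.389). In Bmal1LKO against WT it was 0.54 ± 0.20 under TRF (limma adjusted p = 0.606) and 0.85 ± 0.20 under AL (adjusted p = 0.124). The Npas2 results depended on the scale. With a pseudocount of 0.1, under which a change among low values weighs more, the adjusted p was 0.00121 and 0.000118 in Bmal1LKO under TRF and AL and 0.00101 in ReverbLDKO under TRF. The ReverbLDKO call under AL held in 57 of 67 fits that left out 1 library, and it was lost without the WT library at ZT16 that stood apart (adjusted p = 0.052). It was also lost when fitted with only the groups compared (adjusted p = 0.372), without replicate 1 of WT (0.265) and with the same sum of FPKM (0.114). Clock passed in none of the 6 comparisons (limma adjusted p from 0.276 to 0.959). After the GC and length correction the Clock difference passed in CryDKO under TRF (adjusted p = 0.0168) and AL (0.00644) and in ReverbLDKO under TRF (0.00768).

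The 24 h level of Arntl was highest in ReverbLDKO. The lowest, median and highest Arntl values were 9.17, 12.8 and 18.2 FPKM in ReverbLDKO under TRF against 0.416, 7.83 and 12.6 FPKM in WT under TRF. Under AL they were 10.9, 11.5 and 13.5 FPKM in ReverbLDKO against 0.552, 6.93 and 11.7 FPKM in WT. The ranges overlapped, but no ReverbLDKO library fell below the WT median, and at ZT12 and ZT24, the times sampled in both, every ReverbLDKO library was above all WT libraries of its feeding group. Arntl rose in ReverbLDKO by 1.28 ± 0.18 log2 relative to WT under TRF (limma adjusted p = 1.43e-07) and by 1.26 ± 0.17 under AL (adjusted p = 2.19e-07), and the mean FPKM was 1.77 and 2.06 times that of WT. Of all tested genes, 52.6% passed for level in ReverbLDKO against WT under TRF and 44.7% under AL.

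In CryDKO, Arntl sat between the extremes of the WT day. Its lowest, median and highest values were 3.73, 5.11 and 7.35 FPKM in CryDKO under TRF and 3.35, 5.08 and 5.52 FPKM in CryDKO under AL, all within the WT ranges above. The level differed from WT by 0.08 ± 0.18 log2 under TRF (limma adjusted p = 0.722) and by 0.08 ± 0.17 under AL (adjusted p = 0.7), while 61.5% and 55.5% of all genes passed. With library weights the TRF difference was 0.40 ± 0.15 and passed (adjusted p = 0.0192). On the plain scale the mean FPKM in CryDKO was 0.705 times that of WT under TRF and 0.825 times under AL, opposite in direction to the log2 values. In Bmal1LKO, Arntl fell by 0.53 ± 0.20 log2 relative to WT under TRF (limma adjusted p = 0.0285). Under AL its difference of -0.22 ± 0.19 did not pass (adjusted p = 0.412, 95% interval -0.60 to 0.15), and without the high ZT20 library it was -0.38 ± 0.21 (adjusted p = 0.205). The TRF call was lost under 10 of the alternatives, with adjusted p from 0.0576 to 0.659, and when any 1 of 7 libraries was left out, Bmal1LKO under TRF at ZT4, 8, 16 or 20, either WT library under TRF at ZT4, or the first at ZT16 (adjusted p up to 0.094). For Bmal1LKO 39.1% of all genes passed under TRF and 24.8% under AL.

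The order of Arntl levels, from the highest down, was ReverbLDKO under TRF and AL, CryDKO under TRF, WT under TRF, CryDKO under AL, WT under AL, and Bmal1LKO under AL and TRF. Of the 7 neighbouring pairs in that order, only ReverbLDKO under AL over CryDKO under TRF differed by more than 2 SE, at 1.06 ± 0.19 log2.

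Npas2 separated the genotypes most widely. It was at 0 FPKM in all 16 CryDKO libraries, with 0 recovered reads. In Bmal1LKO the lowest, median and highest values were 3.22, 3.66 and 5.30 FPKM under TRF and 1.80, 5.22 and 8.53 FPKM under AL. In ReverbLDKO they were 2.11, 3.75 and 5.70 FPKM under TRF and 2.44, 3.64 and 5.06 FPKM under AL, against 0, 0.415 and 1.78 FPKM in WT under TRF and 0, 0.328 and 3.22 FPKM in WT under AL. Under TRF neither Bmal1LKO nor ReverbLDKO overlapped WT. Under AL the ranges overlapped, although Bmal1LKO was above all WT libraries at 6 of 6 shared times. The share of all genes that separate from WT in these ways was not computed. For level, 39.1% and 52.6% of all genes passed in Bmal1LKO and ReverbLDKO under TRF, so the separation only describes Npas2.

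**Figure D3:**
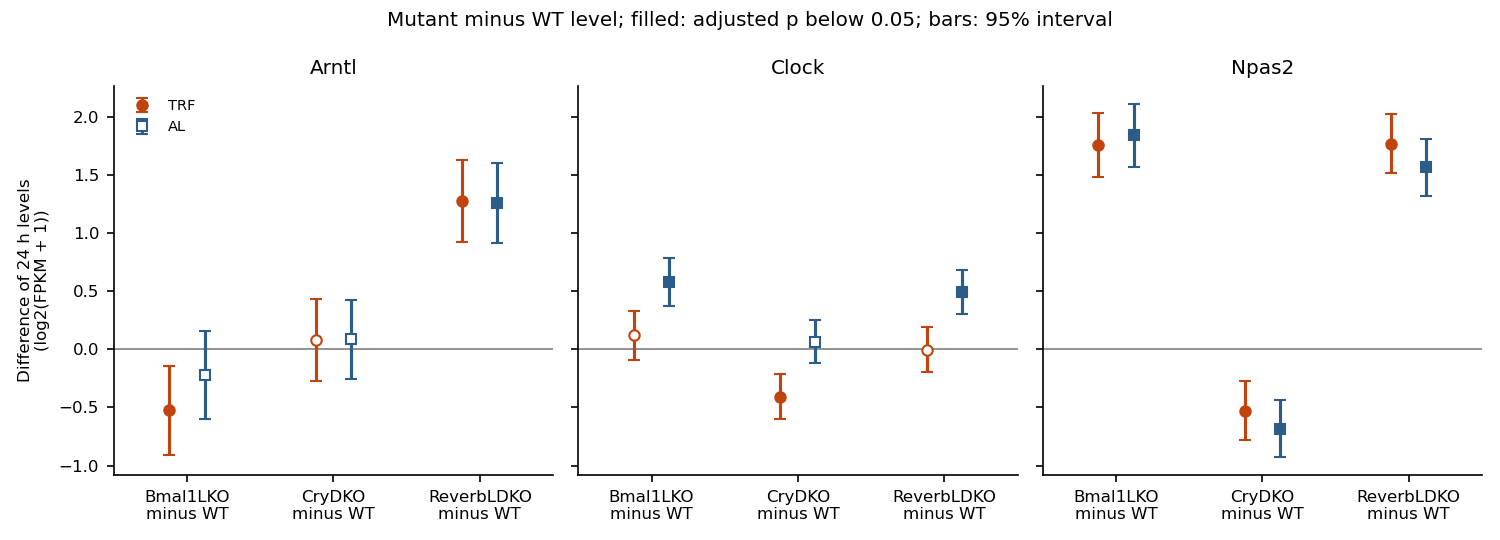
Difference of the 24 h level, mutant minus WT, in log2(FPKM + 1) for Arntl, Clock and Npas2, with TRF (circles) left of AL (squares), bars for the 95% interval and filled points where the adjusted p was below 0.05. Npas2 lies between 1.56 and 1.84 in Bmal1LKO and ReverbLDKO and below 0 in CryDKO, and Arntl lies near 1.28 in ReverbLDKO.

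Npas2 rose in Bmal1LKO by 1.75 ± 0.14 log2 relative to WT under TRF (limma adjusted p = 8.03e-14) and by 1.84 ± 0.14 under AL (adjusted p = 1.23e-14). The mean FPKM was 6.01 and 5.97 times that of WT. It rose in ReverbLDKO by 1.77 ± 0.13 under TRF (limma adjusted p = 3.63e-15) and by 1.56 ± 0.13 under AL (adjusted p = 1.14e-13), and the mean FPKM was 6.22 and 4.44 times that of WT. Npas2 had passed the filter on the mean through these same mutants, so these p-values are no independent support for the rise. Of all tested genes, 39.1% and 24.8% passed for level in Bmal1LKO under TRF and AL, and 52.6% and 44.7% in ReverbLDKO. Bile duct marker sums, over 4 of 4 markers with none at 0 in any group, had a like order of medians over groups, with 5.93 and 5.23 FPKM in Bmal1LKO under TRF and AL, 5.48 and 4.20 in ReverbLDKO, 2.11 and 1.75 in CryDKO, and 2.61 and 3.27 in WT. Single libraries overlapped, with bile duct sums of 1.61 to 5.40 FPKM in WT under TRF and 3.27 to 5.21 in ReverbLDKO under AL. Stellate marker medians were also highest in these mutants, at 13.3 and 16.4 FPKM in Bmal1LKO under TRF and AL and 13.3 and 15.1 in ReverbLDKO. They were 10.7 and 10.03 in CryDKO and 11.9 and 10.4 in WT. The part of either marker set in the Npas2 result was not tested.

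In CryDKO Npas2 fell relative to WT, by 0.53 ± 0.13 log2 under TRF (limma adjusted p = 0.000529) and by 0.68 ± 0.13 under AL (adjusted p = 1.89e-05). These fitted values depend on the pseudocount and are not bounds. Of all tested genes, 61.5% and 55.5% passed for level in CryDKO under TRF and AL. The floor was 3 reads in each library, a mean of 0.0470 FPKM under TRF and 0.0353 FPKM under AL. At that floor, mean Npas2 over the day was at least 13.9-fold lower in CryDKO than in WT under TRF. Under AL it was at least 24.4-fold lower. Against Bmal1LKO it was at least 83.4-fold lower under TRF and 146-fold lower under AL. Against ReverbLDKO it was at least 86.3-fold lower under TRF and 108-fold lower under AL. Of the WT libraries, 6 of 11 under TRF and 9 of 12 under AL were above the highest CryDKO floor of their feeding. From ZT8 to ZT16 under TRF, WT had 0 to 0.0362 FPKM, below the mean floor, so no fall can be shown at those times. The floor covers counting error only, and 3 of the 9944 tested genes, Npas2 among them, were at 0 in all 16 CryDKO libraries. The origin of these zeros was not tested.

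From the highest down, the order of Npas2 levels was Bmal1LKO under AL, ReverbLDKO under TRF, Bmal1LKO under TRF, ReverbLDKO under AL, WT under AL, WT under TRF, and CryDKO. Neighbours differed by more than 2 SE at 2 steps of that order. These were ReverbLDKO under AL over WT under AL, by 1.56 ± 0.13 log2, and WT under TRF over CryDKO under TRF, by 0.53 ± 0.13.

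Clock, the main partner of BMAL1, stayed within a narrow range of levels. Its lowest, median and highest values were 4.42, 6.04 and 7.29 FPKM in Bmal1LKO under TRF, 2.99, 3.83 and 5.55 in CryDKO under TRF and 4.43, 5.41 and 6.31 in ReverbLDKO under TRF, against 3.10, 6.04 and 9.47 in WT under TRF. Under AL they were 4.55, 5.67 and 6.69 FPKM in Bmal1LKO, 3.23, 3.64 and 4.03 in CryDKO and 4.35, 5.27 and 6.08 in ReverbLDKO, against 2.00, 3.62 and 4.996 in WT. In WT the TRF libraries were above both AL libraries at 5 of 6 times.

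In WT, Clock was the 1 member whose level differed between feedings. It rose by 0.52 ± 0.09 log2 under TRF relative to AL (limma adjusted p = 1.45e-06, 95% interval 0.35 to 0.70), with a mean of 5.70 ± 1.86 FPKM under TRF (SD, n = 11) and 3.51 ± 0.82 FPKM under AL (SD, n = 12), and its time mean was higher under TRF at 6 of 6 times. Of all tested genes 64.0% passed in this comparison, and the 2 WT groups were those that differed in GC slope. With GC content and gene length corrected within each library, the Clock difference was 0.04 ± 0.06 (limma adjusted p = 0.658).

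Arntl differed between feedings in WT by 0.12 ± 0.16 log2 (limma adjusted p = 0.538, 95% interval -0.20 to 0.43) and was higher under TRF at 4 of 6 times. Npas2 differed by -0.16 ± 0.12 (limma adjusted p = 0.238, 95% interval -0.38 to 0.07) and was lower under TRF at 5 of 6 times, while with the GC and length correction its difference was 0.25 ± 0.12 (adjusted p = 0.0941). In the mutants no member passed for feeding (limma adjusted p from 0.556 to 1), against 0.0402% of all genes in Bmal1LKO, 0.0201% in CryDKO and 3.31% in ReverbLDKO.

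The feeding effect on Clock was smaller in each mutant than in WT when the difference itself was tested. It differed from that of WT by -0.46 ± 0.15 log2 in Bmal1LKO (limma adjusted p = 0.0114), by -0.47 ± 0.14 in CryDKO (adjusted p = 0.00408) and by -0.50 ± 0.14 in ReverbLDKO (adjusted p = 0.00384). The 3 differences share the WT libraries, and the background was 42.0%, 46.6% and 36.2% of all genes. After the GC and length correction they were 0.13, -0.006 and -0.09, and none passed (adjusted p 0.383, 0.975 and 0.533). Arntl and Npas2 passed in none of these tests.

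Between genotypes, Clock rose in Bmal1LKO relative to WT under AL by 0.58 ± 0.10 log2 (limma adjusted p = 4.39e-05) and in ReverbLDKO under AL by 0.49 ± 0.10 (adjusted p = 7.31e-05), and it fell in CryDKO under TRF by 0.41 ± 0.10 (adjusted p = 0.000423). The other 3 differences were 0.12 ± 0.11 in Bmal1LKO under TRF (limma adjusted p = 0.398), -0.0031 ± 0.10 in ReverbLDKO under TRF (0.981) and 0.06 ± 0.10 in CryDKO under AL (0.578). With the GC and length correction the Clock pattern was more alike in both feedings. Clock was then higher in Bmal1LKO by 0.33 ± 0.07 under TRF (adjusted p = 0.000399) and 0.20 ± 0.07 under AL (0.0358), and lower in CryDKO, at -0.33 ± 0.07 under TRF (6.6e-05) and -0.32 ± 0.06 under AL (5.9e-05). In ReverbLDKO it was 0.05 ± 0.07 under TRF (0.541) and 0.15 ± 0.06 under AL (0.0607). Of the 7 neighbouring pairs in the order of Clock levels, only ReverbLDKO under AL over CryDKO under TRF differed by more than 2 SE, at 0.38 ± 0.10 log2.

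**Figure D4:**
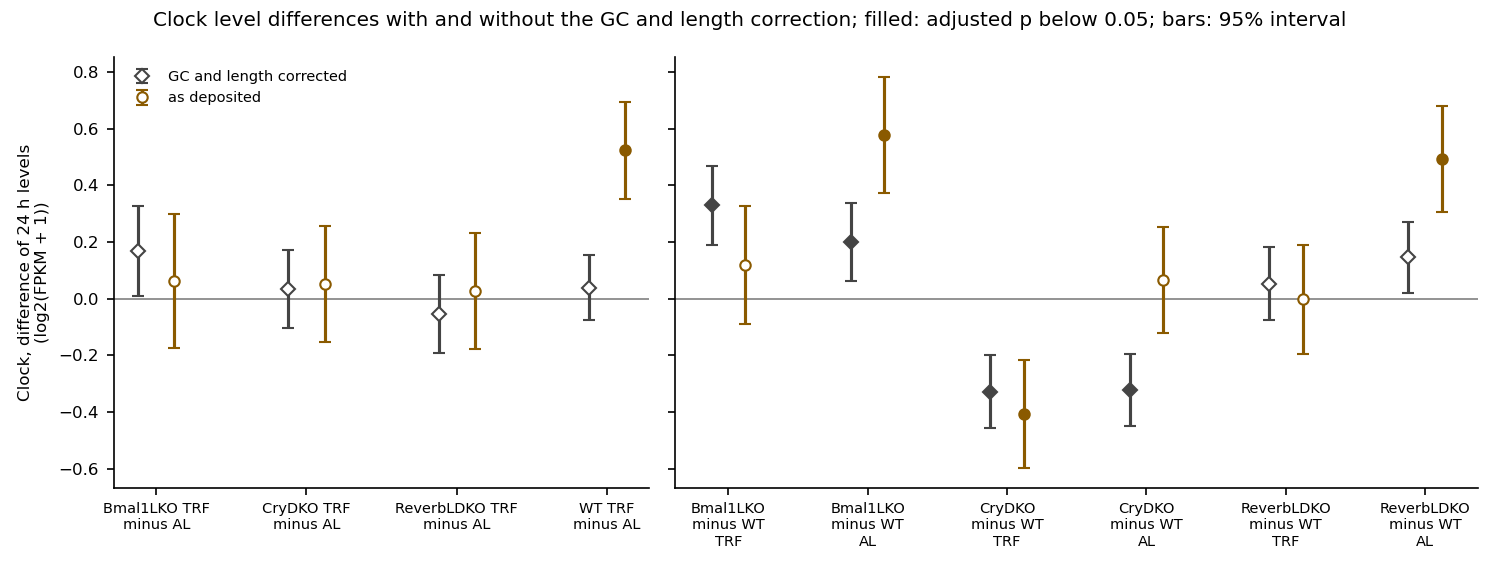
Difference of the 24 h Clock level in log2(FPKM + 1), TRF minus AL on the left and mutant minus WT on the right, with the GC and length correction (diamonds) and as deposited (circles), bars for the 95% interval and filled points where the adjusted p was below 0.05. The WT difference between feedings is 0.52 as deposited and 0.04 corrected, and in CryDKO under AL the difference from WT is 0.06 as deposited and -0.32 corrected.

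The effect of feeding on the curves themselves passed for none of the 3 members in any genotype. For Arntl the curve of TRF minus AL had an amplitude of 0.42 ± 0.23 log2 in WT (limma adjusted p = 0.649) and 0.66 ± 0.27 in CryDKO (unadjusted p = 0.062, adjusted p = 0.457). For Npas2 in WT it was 0.24 ± 0.16 (limma adjusted p = 0.699), and for Clock 0.15 ± 0.12 (adjusted p = 0.754). By limma 0% of genes passed in Bmal1LKO, in ReverbLDKO and in WT, with 102, 280 and 880 genes at an unadjusted p under 0.05, and 1.31% passed in CryDKO. With library weights, Arntl passed in CryDKO (adjusted p = 0.0151) and in WT (0.0282) and Npas2 in ReverbLDKO (0.0125). In that fit 2021 of 9944 genes passed in CryDKO, 909 in ReverbLDKO and 267 in WT.

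CLOCK and NPAS2 occupy the same place beside BMAL1, so the make-up of the partner pool was described as the share of Npas2 in the summed FPKM of Clock and Npas2. In Bmal1LKO the lowest, median and highest shares were 34.1, 38.6 and 48.0% under TRF and 22.03, 49.98 and 58.6% under AL. In ReverbLDKO they were 29.8, 41.6 and 51.6% under TRF and 33.9, 41.5 and 48.8% under AL, and in CryDKO all were 0%. In WT they were 0, 6.05 and 34.2% under TRF and 0, 9.28 and 41.9% under AL, with the highest shares at ZT24 and ZT4. The share is one of RNA and not of protein.

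**Figure D5:**
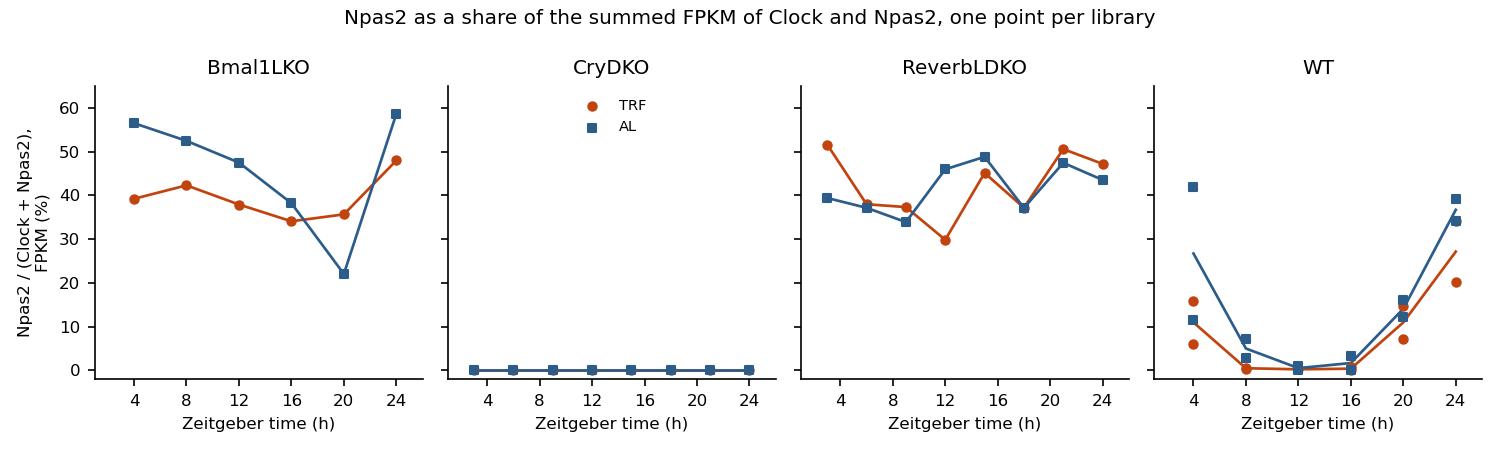
Npas2 as a percentage of the summed FPKM of Clock and Npas2 against zeitgeber time in hours in Bmal1LKO, CryDKO, ReverbLDKO and WT, with 1 point per library, circles for TRF, squares for AL and lines through the means at each time. WT runs from 0% to at most 41.9%, Bmal1LKO and ReverbLDKO stay at or above 22.03%, and CryDKO is at 0%.

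The summed FPKM of both partners was also higher in 2 mutants, with medians of 10.3 and 10.7 FPKM in Bmal1LKO under TRF and AL and 9.36 and 9.26 in ReverbLDKO, against 6.04 and 3.94 in WT. CryDKO had 3.83 and 3.64 FPKM. The ratio of Arntl to that sum had medians of 0.313 and 0.288 in Bmal1LKO, 1.29 and 1.34 in CryDKO, 1.46 and 1.31 in ReverbLDKO, and 1.21 and 1.41 in WT. The ratio was thus lower in Bmal1LKO, and in WT it ran from 0.133 to 2.41 under TRF over the day. Sums and ratios were not corrected for GC content and length either. The Clock level difference between feedings in WT was 0.52 log2 as deposited and 0.04 corrected, which limits the comparisons with WT.

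Genes that the activators are known to drive through E-boxes were set beside the members, from a list of 15 of which 14 were tested. Of these, 10 had a 24 h curve in WT under TRF and 14 under AL, with median amplitudes of 1.26 and 1.20 log2 against 0.24 and 0.26 over all genes. Of those, 9 of 10 peaked from ZT7.2 to ZT14.5 under TRF and 13 of 14 from ZT7.9 to ZT13.5 under AL, and Cry1 peaked later, at ZT19.2 and ZT18.9. In mutants 0 of 14 passed in Bmal1LKO under TRF, 1 under AL (Per1), 0 in CryDKO under both feedings, and 9 in ReverbLDKO under TRF and 0 under AL. In CryDKO, where the repressors are deleted, 13 of 14 rose under TRF and 12 under AL, and 0 fell, with medians of 1.23 and 1.21 log2. Of all genes, 61.5% and 55.5% passed there. After the GC and length correction, 13 rose and 1 fell under each feeding, while 49.67% and 53.33% of all genes passed. Cry1 and Cry2, targeted in this genotype, are among the 14. Dbp, a PAR bZIP activator of detoxification genes, rose by 2.88 ± 0.32 under TRF and 2.43 ± 0.31 under AL. Ciart, a repressor of the activator pair, rose by 2.34 ± 0.20 and 2.03 ± 0.19.

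In Bmal1LKO 3 E-box genes rose and 5 fell under TRF, and 3 rose and 4 fell under AL. Nr1d2 fell by 1.65 ± 0.23 log2 under TRF and 1.10 ± 0.23 under AL, and Nr1d1 by 0.85 ± 0.22 and 1.13 ± 0.22. Cry1, which also has ROREs, rose by 1.31 ± 0.13 and 1.44 ± 0.13. The fall of both Rev-erb genes stood beside the rise of Npas2 in the same libraries, and a link between them was not tested. In ReverbLDKO 5 E-box genes rose under TRF and 8 under AL, the targeted Nr1d1 among them, and 0 fell, with Dbp at 1.24 ± 0.32 and 1.49 ± 0.31 and Cry1 at 0.96 ± 0.12 and 0.98 ± 0.12. Of all genes, 39.1% and 24.8% passed in Bmal1LKO under TRF and AL, and 52.6% and 44.7% in ReverbLDKO. The E-box count in ReverbLDKO under TRF, 5 of 14, is below the share over all genes. After the GC and length correction, 4 rose and 1 fell in ReverbLDKO under TRF, and 8 rose and 0 fell under AL. In Bmal1LKO 1 then rose and 5 fell under TRF, and 3 rose and 4 fell under AL. Of all genes, 44.57% and 44% then passed in ReverbLDKO under TRF and AL, and 28% and 21.2% in Bmal1LKO.

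The RORE arm, a list of 8 genes that share Nr1d1, Nr1d2 and Cry1 with the E-box list, had 7 tested. In WT 5 had a 24 h curve under each feeding. Nfil3, a repressor of D-box genes and a known REV-ERB target, peaked at ZT22.3 under TRF and ZT21.5 under AL, near Arntl. In ReverbLDKO 3 of 7 rose and 1 fell relative to WT under TRF, and 5 rose and 1 fell under AL. Nfil3 rose by 1.06 ± 0.21 log2 under TRF and 0.67 ± 0.20 under AL. In Bmal1LKO 2 rose and 2 fell under TRF and 3 rose and 2 fell under AL, and in CryDKO 4 rose under TRF and 4 rose and 1 (Nfil3) fell under AL. After the GC and length correction 4 rose and 1 fell under TRF and 5 rose and 0 fell under AL in CryDKO, where 49.67% and 53.33% of all genes then passed. Without the correction, 52.6% and 44.7% of all genes passed in ReverbLDKO under TRF and AL. The shares were 39.1% and 24.8% in Bmal1LKO and 61.5% and 55.5% in CryDKO. The counts of this list in ReverbLDKO and CryDKO under TRF lie near these shares.

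Of 15 bHLH-PAS genes and their p160 coactivators, the wider family of the members, 7 were tested. In CryDKO 6 of 7 rose under each feeding, with Epas1, which encodes HIF-2α, up by 1.31 ± 0.23 log2 under TRF and 0.76 ± 0.22 under AL. In ReverbLDKO 4 rose under each feeding and 0 fell, and in Bmal1LKO 1 fell under TRF (Hif1a) and 3 rose under AL. After the correction 6 rose in CryDKO under each feeding, 4 and 3 in ReverbLDKO under TRF and AL, and 1 and 2 in Bmal1LKO, and 0 fell. Of 14 tested genes for enzymes that modify clock proteins, 10 rose and 0 fell in WT under TRF relative to AL, the comparison in which Clock rose. Their median was 0.50 log2 against -0.03 over all genes, and 64.0% of all genes passed, so the count called lies near that share. After the GC and length correction 5 of the 14 rose and 1 fell, while 34.85% of all genes passed. Against WT under AL, 8, 10 and 8 of these 14 rose and 1, 0 and 2 fell in Bmal1LKO, CryDKO and ReverbLDKO. Under TRF 0, 3 and 4 rose and 5, 1 and 4 fell. After the correction 3, 8 and 6 rose and 2, 0 and 1 fell under AL, and 0, 5 and 4 rose and 2, 1 and 2 fell under TRF. Of 10 tested coregulators, 5 rose and 1 fell in CryDKO under TRF and 6 rose and 1 fell under AL. In ReverbLDKO 4 rose and 2 fell under TRF and 5 rose under AL, and in Bmal1LKO 1 rose and 1 fell under TRF and 2 rose under AL. After the correction 4 rose and 1 fell in CryDKO under TRF and 5 rose and 1 fell under AL, 2 rose and 3 fell in ReverbLDKO under TRF and 2 rose under AL, and 0 passed in Bmal1LKO. Of all genes, 61.5% and 55.5% passed in CryDKO under TRF and AL, 52.6% and 44.7% in ReverbLDKO, and 39.1% and 24.8% in Bmal1LKO, so several of these counts of family members, modifiers and coregulators lie near the background.

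The genes most like each member were taken by Pearson correlation over the 56 means of group and ZT among 9943 genes, as a description without a test, since the points share libraries, depth and GC slope. Nearest to Arntl were Nfil3 (r = 0.79), Gldc, of the glycine cleavage system (0.67), Net1 (0.64), Lnx2 (0.64) and Nkiras1 (0.63), and most opposite were Cyp7a1, an enzyme that converts cholesterol to bile acids (-0.65), Snrpn (-0.65) and Plekhb1 (-0.62). Nearest to Npas2 were Loxl4, a lysyl oxidase relative (0.96), Chic1 (0.94), Rnf144a (0.93) and Ppard, a fatty acid sensing nuclear receptor (0.91), and most opposite were Nat8 (-0.90), Gsta4 (-0.89) and Abhd6 (-0.88). Nearest to Clock were Trappc8 (0.82), Dhrs9 (0.81), Myef2 (0.79), Mdfic (0.76) and Slc16a6 (0.76), and most opposite were Anapc5 (-0.77), Igfbp4 (-0.75) and Vegfb (-0.75). Among the members r was 0.67 for Clock and Npas2, 0.39 for Arntl and Clock and 0.37 for Arntl and Npas2. With group means removed, which leaves the course over the day, Arntl and Clock were at 0.64, Arntl and Npas2 at 0.53 and Clock and Npas2 at 0.34. Nkiras1 and Plekhb1 were then at 0.055 and -0.044 with Arntl, and Nat8, Gsta4 and Abhd6 at -0.196, -0.333 and -0.238 with Npas2. Absolute values of the other named genes ran from 0.363, for Mdfic with Clock, to 0.819, for Nfil3 with Arntl.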

How the data were processed

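Liver mRNA-seq values came from 1 table that the authors deposited, in FPKM per gene symbol. Per the submitters' processing notes, STAR, featureCounts, DESeq2 and the GRCm38 build were named, without versions. The counting's strand setting is not given in the sources used here. These FPKM are the authors' and were used as deposited. Because low values step in whole reads, 84.2 to 88.2% of low values a library came out whole (within 0.1 reads), and the recovered reads gave each library's depth and the floor of 3 reads.

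The limma fit (limma 3.58.1, R 4.3.3) used log2(FPKM + 1) with a level, a cosine and a sine of a 24 h period for each of 8 groups over 67 libraries. A gene was kept where its mean FPKM was 1 or more, which left 9944. Another 27 entries whose symbols had turned into dates were left out. A rhythm was tested by the cosine and sine terms together, and a difference in rhythm by their contrasts. Benjamini-Hochberg adjustment ran over all genes. The fit was tested on simulated data. Tables and figures used Python 3.11.15, pandas 2.3.3 and matplotlib 3.10.9.

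The members and gene lists were chosen with earlier results of these data known. Named genes are the members, the genes of the lists and, for likeness, the 5 highest and 3 lowest correlations with each member, passing over 1 unnamed gene model. The values of 2 genes that this rule covers are not reported here, although counts over lists include them. Alternatives changed the pseudocount, the filter, the time terms, the samples fitted, the scaling, library weights, GC and length (9581 genes), the replicate block and the library left out. A voom fit on recovered reads was added after seeing the data.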

Additional observations from a re-analysis of the deposited data

Results flagged for a closer look

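In Bmal1LKO under AL, the Arntl value at ZT20 was 7.09 FPKM, and the next highest of the 6 libraries had 3.67 FPKM. The gap was 0.791 of the group's range. The group spans 6 times of day, and chance marks about 1 in 20 groups in this way, of the 16 sets of a member and a group that were checked. The same library had the lowest Npas2 of its group, 1.80 FPKM.

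The effect of feeding on the Clock level differed between each mutant and WT in a test of the difference itself, by -0.46 log2 in Bmal1LKO, -0.47 in CryDKO and -0.50 in ReverbLDKO. With GC content and length corrected within libraries, the same Clock differences were 0.13, -0.006 and -0.09.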

How the results depend on the processing

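Of the values recomputed for members under alternatives other than leaving out 1 library, 976 kept their direction and side of the threshold, 47 lost a call, 28 gained one and 38 changed sign. With 1 library left out, 6103 were kept, 79 lost, 2 gained and 47 changed sign. Where no cause is named, it was not tested. Low reads limit Npas2 in WT and CryDKO, and 1 library at each time limits the mutants' curves.

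Counts of members called moved as follows. The difference of feeding effects had 3 calls for members and 0 with the GC and length correction, and 0 to 3 on leaving out libraries or a WT replicate number, with the 0 for Clock coming without replicate 2. The feeding level had 1 call for members and 0 with the GC and length correction. Rhythm had 6 calls for members, 10 with library weights and 4 with the same sum of FPKM, where both Clock calls were lost. The feeding difference in rhythm had 0 calls for members and 3 with library weights. The genotype difference in rhythm had 8 calls for members, 2 of them Npas2 in CryDKO, where the difference curve is that of WT, 12 with library weights, 11 with the GC and length correction, 1 when fitted with only the groups compared, 5 with the same sum of FPKM, and 5 to 9 on leaving out. Genotype levels had 12 calls for members and 10 to 12 on leaving out. Counts over all genes moved with the setting too, so the member counts cannot be read alone. Of 9944 genes, the curve in ReverbLDKO under TRF passed for 393 in the main fit and 3441 with library weights. For CryDKO minus WT under TRF, the curve difference passed for 343, and for 13 with only the groups compared. Genotype levels passed for 24.8% to 61.5% of genes, and WT feeding levels for 64.0%, or 34.85% with the GC and length correction.

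What the replicate numbers of WT stand for is not labelled. The difference of replicate 1 minus replicate 2 over genes was correlated between feedings. This correlation was 0.398, 0.626, 0.608 and 0.543 at ZT4, 8, 16 and 20 and -0.287 at ZT24. Libraries with the same number thus shared deviations at most of these times, and the main fit held no term for the number. With a replicate block, the calls for members were 3, 1, 12, 6, 0 and 7 for feeding-effect differences, feeding levels, genotype levels, rhythm, and feeding and genotype differences in rhythm. With the block 6408 of 9944 genes passed for feeding level in WT, against 6366 in the main fit. The curve in WT under TRF passed for 2285, against 1988. The voom fit gave 3, 1, 11, 6, 0 and 9.

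Signs that changed were of values uncalled before the change, apart from the Clock feeding effect in Bmal1LKO, and Clock in CryDKO minus WT under AL was called after it (adjusted p = 5.9e-05). For Arntl, CryDKO minus WT under AL was -0.08 with the GC and length correction and -0.0249 with the replicate block, and ran from -0.0475 to 0.22 on leaving out. Arntl in CryDKO minus WT under TRF was -0.0619 without time terms and -0.0432 with the block, and ran from -0.0136 to 0.19. The Arntl feeding effect in CryDKO minus WT was 0.0934 with the GC and length correction, 0.29 with library weights, 0.0685 with a pseudocount of 0.1 and 0.0208 with voom, and ran from -0.12 to 0.10. That in ReverbLDKO was -0.12 without time terms, -0.15 with the same sum and -0.007 with time points as categories, and ran from -0.0916 to 0.13. That in Bmal1LKO was 0.10 with library weights. Arntl in WT, TRF minus AL, was -0.20 with library weights, and Arntl in Bmal1LKO minus WT under AL was 0.0208 with the same sum.

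For Clock, the GC and length correction gave -0.32 for CryDKO minus WT under AL, 0.13 for the feeding effect in Bmal1LKO, 0.0518 for ReverbLDKO minus WT under TRF and -0.055 for TRF minus AL in ReverbLDKO. Clock in ReverbLDKO minus WT under TRF was also 0.0048 with a pseudocount of 0.1, 0.13 with the block, 0.12 with the same sum and 0.0049 with voom, and ran from -0.17 to 0.19. With the same sum, Clock for TRF minus AL was -0.0901 in Bmal1LKO, -0.0082 in CryDKO and -0.0869 in ReverbLDKO. Leaving out gave -0.0162 to 0.13 for that in Bmal1LKO and -0.049 to 0.31 for Clock in Bmal1LKO minus WT under TRF. Fits with 1 replicate number of WT left each WT time with 1 library, and without replicate 2 the Clock fall in CryDKO under TRF was lost (adjusted p = 0.121).

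For Npas2, the GC and length correction gave 0.25 for WT TRF minus AL, -0.29 for the feeding effect in CryDKO and -0.10 for that in ReverbLDKO. The Npas2 feeding effect in Bmal1LKO was 0.13 with a pseudocount of 0.1 and 0.39 with voom, and ran from -0.31 to 0.12. Npas2 for TRF minus AL in ReverbLDKO was -0.0606 with the same sum and ran from -0.0129 to 0.10.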
